A study of Mus musculus with 30 samples.

Results

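Arc, Nptx2, Inhba, Scg2, Vgf, Pcsk1, Nrn1, Ptgs2 and Rgs2 are neuronal genes whose products act at the synapse or outside the cell rather than on transcription. They were taken by symbol from a table of FPKM (fragments scaled to the length of the exon model and to the mapped fragments of the library), in which each of the 9 genes has 1 row of 24883. All 9 passed the filter for testing, a mean of at least 1 FPKM over the 30 libraries, as did 13184 rows in all. Inhba, with a mean of 1.34 FPKM, was the member closest to that limit.

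The libraries came from the dCA1 of male young adult C57BL/6J mice, wild type at the genome level, with 6 mice in each of 5 conditions and 1 library per mouse. VEH-HC mice received the transfection reagent in vivo-jetPEI without DNA, were handled and stayed in the home cage. VEH-T10 and VEH-T3 mice received the same reagent and were trained for object location memory for 10 min, a period above the threshold for long-term memory, or for 3 min, a subthreshold period. Y397F-T10 mice received a plasmid for HA-tagged mouse CREST with tyrosine Y397 replaced by phenylalanine, and were trained for 10 min. Y397D-T3 mice received a plasmid for CREST with aspartic acid at that site, and were trained for 3 min. The labels call these plasmids phospho-null and phospho-mimetic. The paper could not detect phosphorylation at this site and therefore calls them point mutants. CREST, the product of Ss18l1, is a subunit of the neuronal BAF chromatin remodelling complex. The plasmids were driven by a short CaMK2 promoter, which favours excitatory neurons, and were infused into both hemispheres 3 days before training. Trained mice were sampled 1 h after training. The memory task of the paper includes habituation to the chamber before training, whereas its home cage mice received only handling. Training and habituation therefore cannot be told apart in a comparison with VEH-HC. The vehicle contained no DNA, so the mutation, overexpression of CREST and the presence of a plasmid cannot be told apart. The endogenous gene was intact in all mice.

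In pyramidal neurons, calcium entry during firing activates kinases that act on CREB, SRF and their coactivators at genes that are held ready for transcription. The early targets encode transcription factors, and others encode effectors that reach the synapse directly. Arc protein binds the endocytic machinery and removes AMPA receptors from the spine surface. The remaining 8 products include secreted proteins and peptides, an enzyme that processes them, a membrane-anchored growth factor, an enzyme of prostaglandin synthesis and a brake on G protein signalling.

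The tissue, dorsal hippocampus in the labels and dCA1 in the paper, was checked first. All 4 dorsal CA1 markers (Wfs1, Fibcd1, Pou3f1 and Mpped1) were present in every condition, with summed levels between 143 and 220 FPKM. Dentate granule markers summed to between 45.1 and 143.9 FPKM and CA3 markers to between 70.8 and 149 FPKM. The CA1 markers therefore do not show that the tissue was CA1 alone. Median sums of dentate and CA3 markers were lowest in VEH-HC (84.8 and 87.1 FPKM). Among the trained conditions the dentate median ran from 93.9 FPKM in VEH-T10 to 113 FPKM in Y397D-T3. The CA3 median of these markers ran from 95.7 FPKM in VEH-T3 to 111 FPKM in VEH-T10, beside 110 FPKM in Y397D-T3. The part of dentate and CA3 tissue in the levels of the members was not tested. Ss18l1, which the plasmids carry, had a mean of 12.3 ± 0.745 FPKM in VEH-HC, 12.6 ± 0.920 in Y397F-T10 and 13.6 ± 0.471 in Y397D-T3 (SD, n = 6), and did not pass the test in either plasmid comparison (limma adjusted p = 1.00 against VEH-T10 for the first plasmid and 0.786 against VEH-T3 for the second). Plasmid expression was therefore not detected at the level of the whole gene in these comparisons. In Y397D-T3, Ss18l1 had an unadjusted limma p of 0.034 against VEH-HC and 0.00749 against VEH-T10 (adjusted p = 0.163 and 0.389). In Y397F-T10 its unadjusted p against VEH-HC was 0.652. The paper shows staining for the HA tag of both point mutants in the dCA1 after infusion. Depth relative to the median library, estimated from low rows, whose values fall on multiples of 1 fragment, lay between 0.812 and 1.25. Marker sums are of raw FPKM, so the highest gene of a list weighs most. Gfap averaged 574 FPKM among the astrocyte markers, Sst 490 FPKM among the interneuron markers and Ttr 2183 FPKM among those of choroid plexus. C1ql2 averaged 75.6 FPKM among the dentate markers and Bok 83.6 FPKM among those of CA3. Mouse 1 of VEH-T10, Y397F-T10 and VEH-T3 stood apart, with the 3 lowest astrocyte marker sums (419, 391 and 393 FPKM, all 5 markers present) and the 3 lowest oligodendrocyte marker sums of the 30 libraries. Leaving them out changed no adjusted call of a member, and the values that moved most are given beside the results. This fit cannot move a difference between Y397D-T3 and VEH-HC, which hold none of these libraries.

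**Figure D1:**
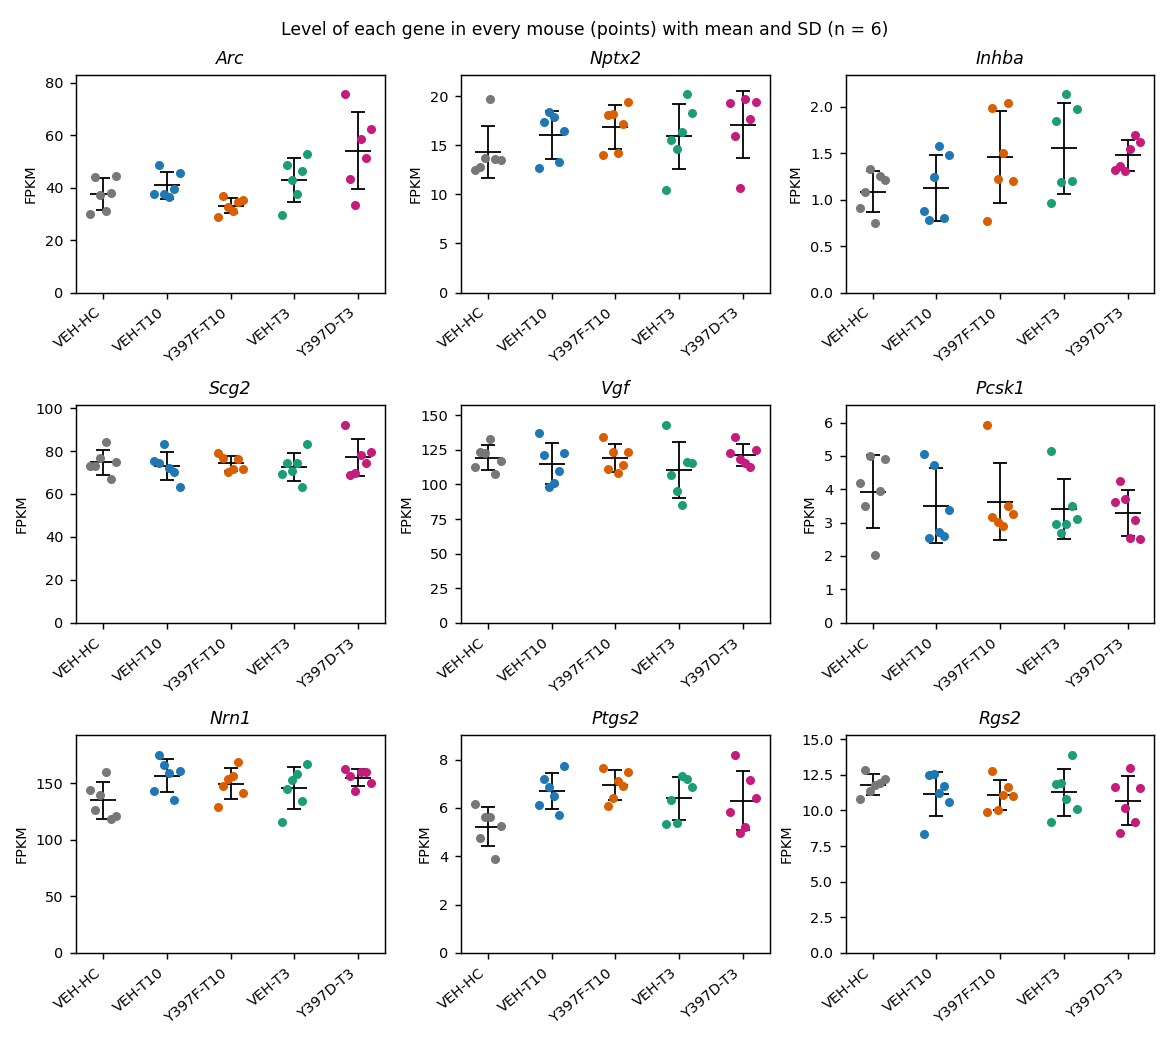
FPKM (vertical axes, from 0) of the 9 genes in every mouse of the 5 conditions, ordered by mouse number from left to right within a condition; bars show the mean and SD of 6 mice. Arc reached 75.5 FPKM in 1 Y397D-T3 mouse and stayed at or below 36.8 FPKM in all Y397F-T10 mice, whereas the conditions overlap closely for Scg2, Vgf and Rgs2.

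Over the 30 libraries the levels per length spanned a wide range. Nrn1 was highest with a mean of 148.5 FPKM, followed by Vgf with 117 FPKM, Scg2 with 74.4 FPKM and Arc with 41.7 FPKM. Nptx2 averaged 16.1 FPKM, Rgs2 11.2 FPKM, Ptgs2 6.32 FPKM, Pcsk1 3.55 FPKM and Inhba 1.34 FPKM. The condition accounted for 44.6% of the log2 variance of Arc and 36.7% of that of Ptgs2, against a median of 17.6% over all tested rows. The share was 26.2% for Nrn1 and 24.5% for Inhba, and it was between 4.77% and 12.2% for the other 5 genes. These shares are descriptions, since 5 groups of 6 take up part of the variance of any gene. In bulk tissue, fewer cells of a type and less RNA per cell cannot be told apart.

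Arc lies on chromosome 15 (GRCm38, chr15:74669083-74672570, minus strand in GENCODE) and overlaps no other annotated gene. Its lowest, median and highest levels were 29.96, 37.6 and 44.3 FPKM in VEH-HC. They were 36.4, 38.5 and 48.6 FPKM in VEH-T10 and 29.7, 44.5 and 52.7 FPKM in VEH-T3. The vehicle conditions overlapped widely, with 3 VEH-T10 mice above the VEH-HC median and 3 below it. In Y397F-T10 the levels were 28.9, 33.4 and 36.8 FPKM, and all 6 mice lay below the medians of VEH-HC, VEH-T10 and VEH-T3. In Y397D-T3 the levels were 33.5, 54.8 and 75.5 FPKM, and 4 of 6 mice exceeded every VEH-HC mouse. Arc therefore had its tightest condition in Y397F-T10, with a coefficient of variation of 8.76%, and its widest in Y397D-T3, with 27.3%.

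Arc rose in Y397D-T3 against VEH-HC by a log2 fold change of 0.49 ± 0.15 (SE; 95% interval 0.19 to 0.79) on the log2(FPKM + 1) scale, with an adjusted p of 0.0397 in limma. It was the 1 member of 9 called higher in that comparison, where 3.91% of all tested rows were called higher and 7.07% in either direction. The call was narrow. It was lost when any of 8 of the 12 mice was left out (VEH-HC mice 1, 3, 4 and 5 and Y397D-T3 mice 1, 4, 5 and 6; adjusted p up to 0.0895), without the filter on mean FPKM (0.0526) and with only the 12 libraries of the comparison (0.0680). It was kept without the 3 libraries of low glial marker sums (0.0236), but none of these is in either condition. The difference therefore stayed at 0.49, and only the shared spread and the adjustment could move. Without Y397D-T3 mouse 3 the call was firmer (log2 0.61, adjusted p = 0.00729). That mouse had the lowest Arc, Nptx2, Inhba, Nrn1 and Ptgs2 of its condition, and also the lowest astrocyte, oligodendrocyte and microglia marker sums and the highest deep cortex sum there. The part of these markers in the Arc result was not tested.

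The plasmid comparisons set each CREST point mutant against vehicle without DNA at a fixed training period. Arc was 0.29 ± 0.15 lower on the log2 scale in Y397F-T10 than in VEH-T10 (95% interval -0.59 to 0.01, limma adjusted p = 1.00), and 5 of 6 Y397F-T10 mice lay below every VEH-T10 mouse. An exact two-sided permutation test over these 12 mice gave p = 0.00433, unadjusted, where the smallest possible p is 0.00216. It was 1 of 90 such tests of a member in a pair of conditions, of which 10 had p under 0.05. Ptgs2 in Y397F-T10 against VEH-HC gave the same exact p. limma shares 1 estimate of the spread over all conditions, which for Arc includes the wide Y397D-T3 group. The limma fit of the 12 Y397F-T10 and VEH-T10 libraries alone, without that group, gave an unadjusted p of 0.0035. Arc was still not called after adjustment there, and 0 of all rows were. Arc was 0.30 ± 0.15 higher in Y397D-T3 than in VEH-T3 (95% interval 0.01 to 0.60, adjusted p = 0.630), with 4 of 6 mice above the VEH-T3 median. The exact permutation test gave p = 0.169 for this pair, the limma fit of its 12 libraries alone an unadjusted p of 0.121, and the fit without the 3 libraries of low glial marker sums a difference of 0.21 (unadjusted p = 0.165). The difference between these plasmid effects was 0.59 ± 0.21 (unadjusted p = 0.00759, adjusted p = 0.415 in limma) and 0.48 without the 3 libraries (unadjusted p = 0.0301), so neither plasmid effect nor their difference passed the test after adjustment.

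The Arc contrast between the plasmid conditions was the largest of any member over the 10 pairs of conditions. Y397D-T3 exceeded Y397F-T10 by 0.65 ± 0.15 on the log2 scale (95% interval 0.35 to 0.95), and 5 of 6 Y397D-T3 mice lay above every Y397F-T10 mouse. The adjusted limma p was 0.0799, in a comparison where 0.0607% of rows were called and 9.18% had an unadjusted p under 0.05, and these conditions differ in training period as well as plasmid. The adjusted p was 0.0429 with library medians subtracted and 0.0229 without Y397D-T3 mouse 3, and it ran from 0.0229 to 0.190 over the 12 fits that left out a mouse. Ordered by mean log2 level, Arc ran from Y397F-T10 through VEH-HC, VEH-T10 and VEH-T3 to Y397D-T3, and no neighbouring conditions in that order differed beyond their spread after adjustment.

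Among the secreted products, Nptx2 and Inhba act on glutamate synapses or through receptor serine kinases. Nptx2, neuronal pentraxin 2, is released at excitatory synapses and clusters AMPA receptors (chr5:144545902-144557478, plus strand). Its lowest, median and highest levels were 12.5, 13.5 and 19.7 FPKM in VEH-HC, 12.7, 16.9 and 18.4 FPKM in VEH-T10, and 10.5, 15.97 and 20.2 FPKM in VEH-T3. They were 13.97, 17.6 and 19.4 FPKM in Y397F-T10 and 10.7, 18.5 and 19.7 FPKM in Y397D-T3. The home cage median was the lowest of the 5, but VEH-HC mouse 4 reached the level of the highest trained mice. The log2 difference from VEH-HC lay between 0.14 and 0.23 in the 4 trained conditions, with every interval including 0.

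Inhba encodes the subunit of activin A (chr13:16011851-16031621, plus strand). The antisense genes B230303A05Rik and Gm48444 overlap it, and since the strandedness of the libraries is not given in the sources used here, their reads cannot be told apart from those of Inhba. Its levels were low, with a range from 0.751 to 1.33 FPKM in VEH-HC and from 0.783 to 1.58 FPKM in VEH-T10. They ran from 0.965 to 2.13 FPKM in VEH-T3, from 0.771 to 2.05 FPKM in Y397F-T10 and from 1.31 to 1.69 FPKM in Y397D-T3. All 6 Y397D-T3 mice exceeded the VEH-HC median, with a log2 difference of 0.25 ± 0.13 (adjusted p = 0.231). VEH-T3 differed by 0.27 ± 0.13 (adjusted p = 0.218) and VEH-T10 by 0.02 ± 0.13 (adjusted p = 0.972). At this level the added 1 FPKM draws differences toward 0, and with 0.1 added the VEH-T3 and Y397D-T3 differences were 0.44 and 0.43, still without a call.

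Scg2 and Vgf encode granins, precursors stored in dense-core vesicles and cut into peptides, and Pcsk1 encodes the convertase that cuts such precursors. Scg2 (chr1:79434669-79440120, minus strand) held within 63.1 and 92.3 FPKM in all 30 mice, and its log2 differences from VEH-HC lay between -0.04 and 0.04. The 95% interval for Y397D-T3, the widest departure upward, ran from -0.10 to 0.18. Vgf (chr5:137026392-137033351, plus strand) ranged from 84.9 to 143 FPKM, and both of these extremes were VEH-T3 mice. Its difference in VEH-T3 from VEH-HC was -0.13 ± 0.09 (adjusted p = 0.443), and it moved to -0.21 (adjusted p = 0.0695) without the 3 libraries of low glial marker sums. Pcsk1 (chr13:75089826-75134861, plus strand) was the most variable member within conditions, with an SD of 0.31 log2 against a median of 0.14 over all tested rows. Its mean was 3.92 ± 1.09 FPKM in VEH-HC and between 3.29 and 3.63 FPKM in the trained conditions (n = 6), and every interval of the difference included 0.

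Scg2 and Pcsk1 are shown by sequence because theirs were the 2 of 5 available promoter windows with the full cAMP response element TGACGTCA, the palindrome bound by CREB, whose partner CBP binds CREST. RefSeq windows of GRCm38.p6, 250 bases upstream of the start, were matched for Scg2, Pcsk1, Rgs2, Ptgs2 and Inhba. Arc, Nptx2, Vgf and Nrn1 had no entry. Capitals mark TGACGTCA and its shorter core TGACG on either strand, 5′ to 3′ in the direction of the gene. Bases that GENCODE places inside the gene were left out, apart from the surroundings of the Scg2 element. The Scg2 stretch covers bases -79 to -50 from the start (chr1:79440076-79440105, minus strand) and that of Pcsk1 bases -250 to -32 (chr13:75089607-75089825, plus strand).
Scg2: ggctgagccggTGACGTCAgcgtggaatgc
Pcsk1: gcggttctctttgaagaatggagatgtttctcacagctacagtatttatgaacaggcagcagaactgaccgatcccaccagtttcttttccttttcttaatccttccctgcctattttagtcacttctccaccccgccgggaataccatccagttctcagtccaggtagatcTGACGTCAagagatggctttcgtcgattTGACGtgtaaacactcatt
The element lies at bases -68 to -61 in Scg2 and -78 to -71 in Pcsk1, and 1.55% of 32851 promoter windows hold it. The core TGACG, which the full element contains, was also present in the Rgs2 window, so 3 of 5 windows held it against 17.8% of all windows. The AP-1 site TGANTCA (6.75% of windows) and the CArG box bound by SRF (1.47%) were in none of the 5 windows, and TATAAA (12.4%) was in that of Inhba. Neither Scg2 nor Pcsk1 passed the test in any of the 10 pairs of conditions.

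Nrn1, neuritin, is a small protein anchored to the cell surface that promotes neurite and synapse growth (chr13:36725361-36735131, minus strand). Fars2, on the opposite strand with a mean of 12.7 FPKM, and Gm30177 overlap it. Its lowest, median and highest levels were 118, 133 and 161 FPKM in VEH-HC, 136, 160 and 175 FPKM in VEH-T10, and 116, 149 and 167 FPKM in VEH-T3. They were 129, 151 and 169 FPKM in Y397F-T10 and 143, 158 and 163 FPKM in Y397D-T3. All 6 mice of VEH-T10 and of Y397D-T3 lay above the VEH-HC median, although the ranges overlapped. The log2 differences were 0.22 ± 0.08 in VEH-T10 (unadjusted p = 0.0129, adjusted p = 0.188 in limma) and 0.21 ± 0.08 in Y397D-T3 (unadjusted p = 0.0176, adjusted p = 0.115). Without the 3 libraries of low glial marker sums the adjusted p was 0.0515 and 0.0546, close to the threshold and still above it. None of these libraries is in Y397D-T3 or VEH-HC, so that p moved only through the shared spread and the adjustment. The VEH-T3 difference was 0.11 ± 0.08 and became 0.17 without them (adjusted p = 0.132).

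Ptgs2, cyclooxygenase 2, makes the precursor of prostaglandins and is induced by synaptic activity in excitatory neurons (chr1:150100031-150108227, plus strand). Its levels were 3.90, 5.45 and 6.17 FPKM in VEH-HC (lowest, median, highest). They were 5.72, 6.68 and 7.74 FPKM in VEH-T10, 5.33, 6.58 and 7.34 FPKM in VEH-T3, 6.09, 7.01 and 7.67 FPKM in Y397F-T10, and 4.97, 6.13 and 8.20 FPKM in Y397D-T3. All 6 mice of VEH-T10 and of Y397F-T10 exceeded the VEH-HC median, and 5 of 6 Y397F-T10 mice exceeded every VEH-HC mouse. The log2 differences from VEH-HC after 10 min were 0.31 ± 0.10 in VEH-T10 and 0.36 ± 0.10 in Y397F-T10. After 3 min they were 0.25 ± 0.10 in VEH-T3 and 0.22 ± 0.10 in Y397D-T3. Every 95% interval excluded 0, and no difference passed the adjusted test (adjusted p = 0.123, 0.0707, 0.136 and 0.164 in limma). The 4 comparisons share the 6 VEH-HC mice. Among the trained conditions the Ptgs2 differences lay within 0.14 log2 of 0.

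Markers of deep cortex, tissue that lies above dCA1, differed in their sum between some of these conditions. All 6 of them were present in each condition, with summed levels from 36.4 to 46.8 FPKM in VEH-HC and from 24.3 to 34.7 FPKM in VEH-T10, which did not overlap. The sums ran from 26.7 to 43.9 FPKM in Y397F-T10, 24.5 to 51.3 FPKM in VEH-T3 and 28.0 to 40.4 FPKM in Y397D-T3, which all overlapped VEH-HC. Rprm and Tle4 weighed most in these sums, with means of 16.2 and 13.0 FPKM, and Ctgf followed with 2.93 FPKM. The 6 choroid plexus markers summed to between 918 and 5602 FPKM in VEH-HC, and varied more widely after training, from 10.2 to 4475 FPKM in VEH-T10, 29.2 to 10410 FPKM in Y397F-T10, 29.9 to 12800 FPKM in VEH-T3 and 14.4 to 2842 FPKM in Y397D-T3. The part of either tissue in the Ptgs2 and Nrn1 levels was not tested.

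Rgs2, which speeds the shutdown of G protein signalling (chr1:143999338-144004161, minus strand), had its highest mean in the home cage, 11.8 ± 0.709 FPKM, and its lowest in Y397D-T3, 10.7 ± 1.72 FPKM (n = 6). The log2 differences from VEH-HC lay between -0.15 and -0.07, and every interval included 0. In Y397D-T3 3 mice fell below the lowest VEH-HC mouse and 1 exceeded the highest, so the spread was wide in both directions.

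**Figure D2:**
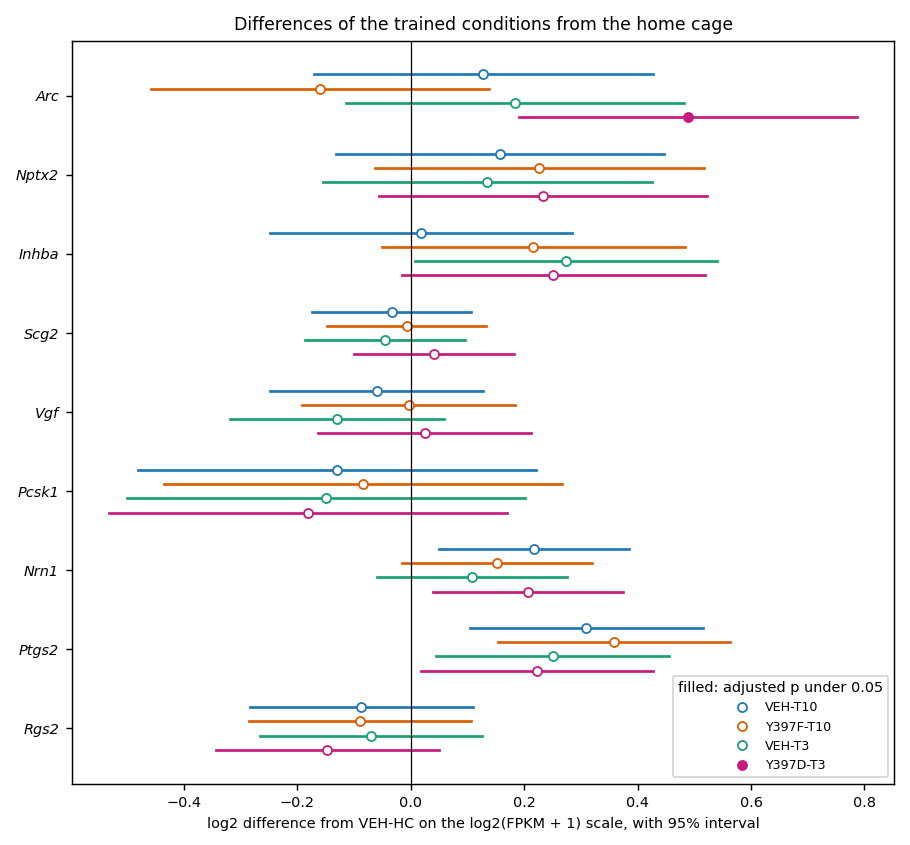
Log2 difference of each trained condition from VEH-HC on the log2(FPKM + 1) scale (horizontal axis), with the 95% limma interval, for the 9 genes; a filled point marks an adjusted p under 0.05. The 1 filled point is Arc in Y397D-T3, and all 4 Ptgs2 intervals lie to the right of 0.

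Against VEH-HC, VEH-T10 called 0 of the 9 genes, where 0.819% of tested rows were called, and 2 at an unadjusted p under 0.05 (Ptgs2 and Nrn1) where 14.9% of rows had such a p. VEH-T3 called 0 of 9 against 5.17% of rows, and 2 at the unadjusted threshold (Ptgs2 and Inhba) against 21.6%. Y397F-T10 called 0 of 9 against 1.13%, and 1 at the unadjusted threshold (Ptgs2) against 16.9%. Y397D-T3 had 3 at the unadjusted threshold (Arc, Ptgs2 and Nrn1) against 24.9%. Without the 3 libraries of low glial marker sums the unadjusted counts were 2, 4, 4 and 4 in VEH-T10, VEH-T3, Y397F-T10 and Y397D-T3, against 20.5%, 26.0%, 20.6% and 29.0% of rows. The median log2 difference of the 9 genes from VEH-HC was 0.02 in VEH-T10, 0.00 with the phospho-null plasmid, 0.11 in VEH-T3 and 0.21 with the phospho-mimetic plasmid, beside medians between -0.04 and -0.03 over all tested rows.

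No member was called in the comparisons among trained conditions by limma. Y397F-T10 against VEH-T10 had 0 members at an unadjusted p under 0.05, where 0.0% of rows were called and 3.78% had such a p. Y397D-T3 against VEH-T3 had 1 (Arc), where 0.00758% were called and 7.87% had such a p, and without the 3 libraries of low glial marker sums the 1 such member was Vgf (log2 0.23, unadjusted p = 0.00485) in place of Arc. VEH-T10 against VEH-T3, which compares the training periods, had 0, where 0.0455% were called and 8.15% had such a p. The Inhba difference was the largest there, -0.26 ± 0.13 (95% interval -0.52 to 0.01), with VEH-T3 higher, and its unadjusted p was 0.0272 without these 3 libraries. Y397D-T3 against VEH-T10 had 1 (Arc), where 0.0379% were called and 8.97% had such a p, and Y397F-T10 against VEH-T3 had 1 (Arc), where 0.0% and 2.73% did. The difference of plasmid effects had 1 (Arc), where 0.0303% were called and 9.08% had such a p. Over all 9 genes, none of 36 neighbouring steps in the order of conditions passed the adjusted test, and 2 had an unadjusted p under 0.05.

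Other activity-induced genes of the same table were counted as context, to be read against the 0.819%, 5.17%, 1.13% and 7.07% of all rows called in VEH-T10, VEH-T3, Y397F-T10 and Y397D-T3 against VEH-HC. The VEH-T3 calls carry a limit. With only the 12 libraries compared, 0 rows were called in VEH-T3 against VEH-HC, in place of 681. Of 17 activity-induced transcription factors, against VEH-HC, 2 rose in VEH-T10, 3 in VEH-T3, 1 in Y397F-T10 and 7 in Y397D-T3, and 0 fell. Their median log2 difference was 0.14, 0.15, 0.04 and 0.31 in that order, beside -0.03, -0.04, -0.04 and -0.03 over all tested rows. Egr1 rose in Y397D-T3 from 36.3 ± 3.29 to 54.4 ± 10.7 FPKM (SD, n = 6; limma adjusted p = 0.00870), and Nr4a1, an orphan nuclear receptor, from 23.8 ± 3.34 to 33.0 ± 7.97 FPKM (adjusted p = 0.0307). Fosb, Egr2, Egr3, Egr4 and Nr4a3 were the other 5 called there, with log2 differences between 0.29 and 0.52. Of 22 other activity-induced effectors, 2 rose in VEH-T10, 2 in VEH-T3, 2 in Y397F-T10 and 4 in Y397D-T3, and 1 fell in each of Y397F-T10 (Dusp1) and Y397D-T3 (Rheb). Homer1, a postsynaptic scaffold, rose in all 4, with log2 differences between 0.42 and 0.51 and no overlap with VEH-HC mice. Nptx1 and Bdnf belong to this list and are counted again among the partners below.

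The partners of the members were counted in the same way, against the same shares of rows and with the same limit on the VEH-T3 calls. Of 7 pentraxins, AMPA receptor subunits and shedding enzymes beside Nptx2, Nptx1 rose in VEH-T10, Y397F-T10 and Y397D-T3, in the last from 130.2 ± 5.47 to 163.9 ± 12.2 FPKM (adjusted p = 0.00443), and Gria2 rose in Y397D-T3 by 0.29 ± 0.07 log2 (adjusted p = 0.0145). Of 18 genes of dense-core vesicle cargo and processing, 2 were called in VEH-T3 (5.17% of rows) and 2 in Y397D-T3 (7.07% of rows). Chga and Pcsk1n, the inhibitor of the Pcsk1 convertase, fell in VEH-T3 by 0.28 and 0.33 on the log2 scale (adjusted p = 0.0396 and 0.0212), and Cck and Bdnf rose in Y397D-T3 by 0.32 each (adjusted p = 0.0235 and 0.0266). Of 15 Rgs genes beside Rgs2, Rgs8 and Rgs11 rose in VEH-T10 and Y397D-T3, Rgs5 and Rgs11 rose in VEH-T3, and Rgs4 fell in VEH-T3. The largest of these was Rgs11 in Y397D-T3, at 0.41 ± 0.07 log2 (adjusted p = 0.00176). Of 10 Arc partners, Ap2m1, an adaptor subunit of clathrin coats, fell in VEH-T3 and Camk2b rose in Y397D-T3. None of the 11 tested activin signalling genes and none of the 8 tested prostaglandin pathway genes was called by limma in these 4 comparisons, and at an unadjusted p under 0.05 up to 3 and up to 1 passed. In the 3 comparisons between trained conditions of the same training period or vehicle, limma called 0 genes of these lists, and up to 3 of a list had an unadjusted p under 0.05.

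Across the 30 libraries, the genes with profiles most like each member were sought among all tested rows by Pearson's r of log2(FPKM + 1), as a description. Arc was followed most closely by Nr4a1 (r = 0.88, rho = 0.81) and Junb (r = 0.84, rho = 0.80), both activity-induced transcription factors, and then by Zfp598 (r = 0.78). With each value taken as its deviation from the condition mean, r was 0.84 for Nr4a1 and 0.82 for Junb, and it was 0.80 and 0.74 without the 2 mice farthest from the Arc median. Within Y397D-T3 the mouse with the highest Arc also had the highest Nr4a1 (42.9 FPKM) and Junb (69.95 FPKM), and mouse 3 had the lowest of all 3 genes.

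**Figure D3:**
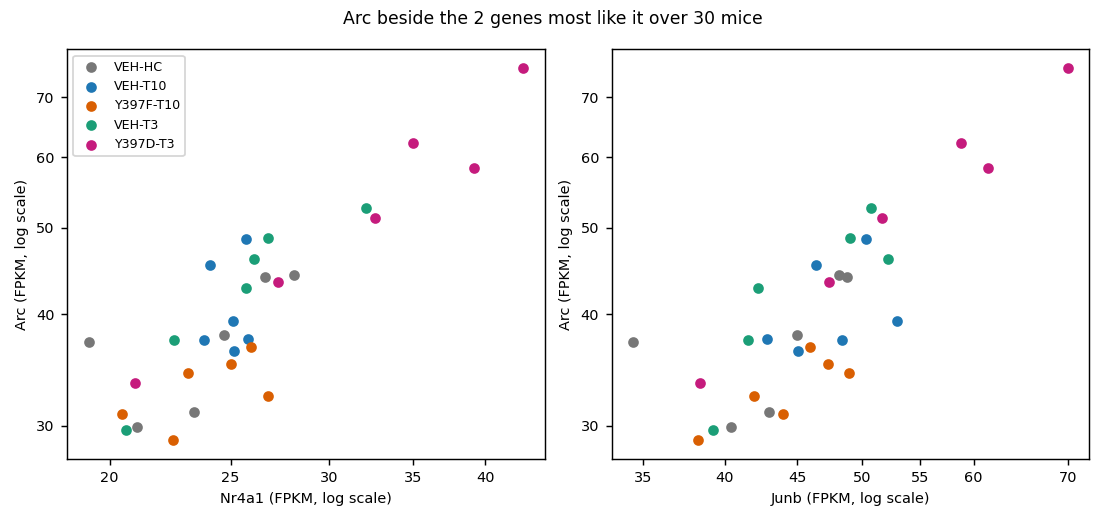
Arc FPKM (vertical, log scale) against Nr4a1 and Junb FPKM (horizontal, log scale), 1 point per mouse and coloured by condition. The Y397D-T3 mice were the most spread, from mouse 3 at 33.5 FPKM of Arc to mouse 1 at 75.5 FPKM, and the Y397F-T10 mice stay at the lower end.

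The other members had other companions. Nrn1 ran with Chn1 (r = 0.89), Faah (0.86) and Neurod2 (0.86), Vgf with Rab6b (0.84), Rnf157 (0.83) and Dlgap4 (0.83), and Rgs2 with Leprot (0.83), Eef1d (0.80) and Pars2 (0.77). Nptx2 ran with Rara (0.82), Nup93 (0.78) and Cap1 (0.77), Pcsk1 with Plcxd3 (0.84), Nalcn (0.82) and Slc39a10 (0.81), and Inhba with Atp2c1 (0.80), Atf6 (0.76) and Dnah9 (0.74). Scg2 ran with Ecsit (0.77), Fam220a (0.73) and Elmod1 (0.73), and Ptgs2 with Trhde (0.77), Rgs8 (0.75) and Prkca (0.73). The libraries share differences in cell composition, which any 2 genes of a tissue can follow.

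The members did not vary as 1 group. Of their 36 pairs, 21 had a positive r over the 30 libraries and 15 a negative one, with a median of 0.05. The highest values were between Nptx2 and Nrn1 (0.63) and between Nrn1 and Ptgs2 (0.53), and the lowest between Nptx2 and Pcsk1 (-0.53) and between Pcsk1 and Nrn1 (-0.52). Arc and Ptgs2, the members with the largest share of variance between conditions, had an r of 0.00.

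Part of this variation ran with mouse 1 of VEH-T10, Y397F-T10 and VEH-T3. Each of these libraries had the highest Pcsk1 and Vgf and the lowest Rgs2 and Nptx2 of its condition. VEH-HC mouse 1 also had the lowest Rgs2 and Nptx2 of its condition, with an astrocyte marker sum of 847 FPKM. Pcsk1 was 5.06 FPKM in the first, 5.94 FPKM in the second and 5.15 FPKM in the third, whereas the means of these conditions were at most 3.63 FPKM. It also reached 5.005 and 4.90 FPKM in VEH-HC mice 3 and 6 and 4.73 FPKM in VEH-T10 mouse 3. Mouse 1 of VEH-T10, Y397F-T10 and VEH-T3 had the lowest microglia marker sums of their conditions, between 96.2 and 116 FPKM beside condition medians between 203 and 274 FPKM. They also had the lowest endothelial and thalamus sums of their conditions, and the highest sums of deep cortex markers (34.7, 43.9 and 51.3 FPKM) and of 7 GABAergic interneuron markers (748.5, 863 and 809 FPKM). The part of cell composition in these levels was not tested.

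**Figure D4:**
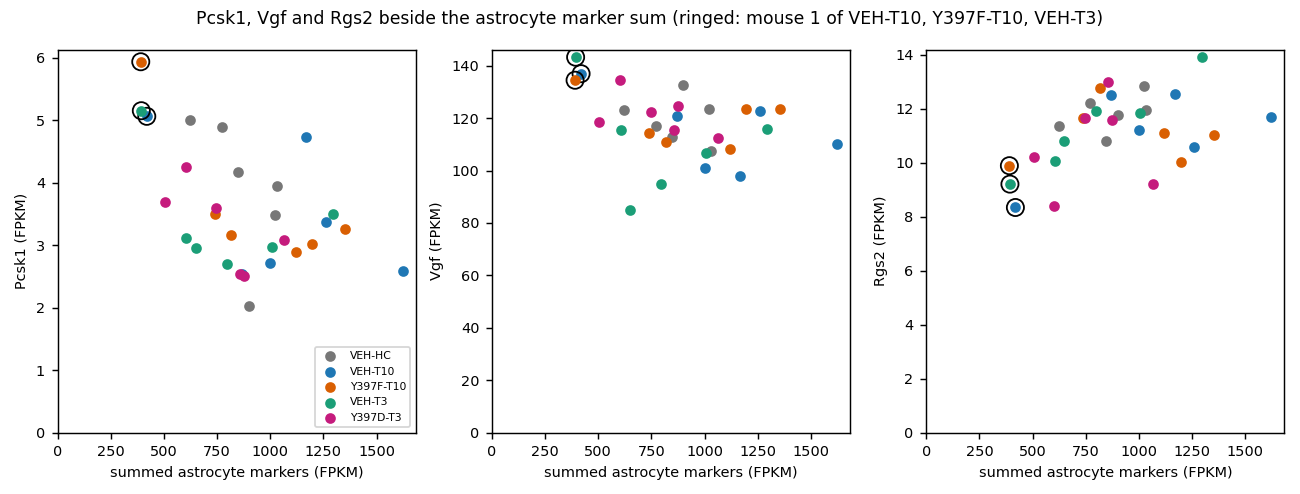
Pcsk1, Vgf and Rgs2 FPKM (vertical axes, from 0) against the summed FPKM of 5 astrocyte markers (horizontal axis), 1 point per mouse and coloured by condition; rings mark mouse 1 of VEH-T10, Y397F-T10 and VEH-T3. The ringed mice have the lowest marker sums, the highest Pcsk1 and Vgf of their conditions and the lowest Rgs2.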

How the data were processed

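RNA of the dCA1 of 30 mice, 6 per condition, was measured with 1 library per mouse. FPKM were computed by the authors with Cufflinks 2.2.1 from paired reads placed on mm10 by TopHat2 2.1.1, per the labels and the methods, and the deposited FPKM were used as given, with 0 value columns left out. The methods name 2 instrument types without saying which library ran on which, so no batch could be modelled. FPKM hold no read totals, so absolute depth is unknown, and precision is given by the spread over mice.

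log2(FPKM + 1) of the 13184 rows with a mean of at least 1 FPKM entered limma 3.58.1 in R 4.3.3, with 1 coefficient per condition, a variance shared by all 30 libraries, a trend on mean expression and Benjamini-Hochberg adjustment over all rows of a comparison. A gene was called at an adjusted p under 0.05. limma was used in place of the Cyber-T analysis of the authors. The script was tested on simulated data. Other steps used Python 3.11.15 with scipy 1.17.1. The members, gene lists and tests were chosen with earlier results of these data known. Named genes were the members, list genes called against VEH-HC, and the 3 tested rows most like each member. Junb, which no comparison called, is named by the last of these. Gene positions come from GENCODE for GRCm38, the assembly of mm10. Alternatives were another pseudocount, no filter, libraries centred on their medians, fewer libraries, a replicate block, summed rows, unadjusted p values and leaving out each mouse. The exact permutation tests and the fit without 3 libraries of low glial marker sums were added after the data had been seen. The labels do not say whether mice of a condition were handled together, so p values measure the spread between these mice.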

Additional observations from a re-analysis of the deposited data

Results flagged for a closer look

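In 45 groups of 6 mice (9 genes in 5 conditions), 3 held a mouse far from the other 5 by Dixon's criterion, where chance gives about 1 in 20, or 2.25. Nptx2 in VEH-HC mouse 4 was 19.7 FPKM, and the other 5 mice lay between 12.5 and 13.7 FPKM. Pcsk1 in Y397F-T10 mouse 1 was 5.94 FPKM, and the others lay between 2.90 and 3.50 FPKM. Pcsk1 in VEH-T3 mouse 1 was 5.15 FPKM, and the others lay between 2.70 and 3.50 FPKM. Both of these mice were among the 3 with the lowest astrocyte marker sums. Their part in the Pcsk1 levels was not tested.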

How the results depend on the processing

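Of the 1197 log2 differences of members under an alternative, 66 changed sign, and in these neither value was called. The 1 called member, Arc in Y397D-T3 against VEH-HC, was lost (0 of 9 members) without the filter, where 18287 rows were adjusted together, and with only the 12 libraries compared, which leaves fewer samples. The count lay between 0 and 1 when a mouse was left out. It was 0 under every alternative for the other 6 planned comparisons, apart from unadjusted p values. Outside them, Arc in Y397D-T3 against Y397F-T10 was called with library medians subtracted and without Y397D-T3 mouse 3. At an unadjusted p under 0.05, 2 members passed in VEH-T10, 2 in VEH-T3, 1 in Y397F-T10 and 3 in Y397D-T3 against VEH-HC, 1 in Y397D-T3 against VEH-T3, and 1 in the difference of plasmid effects.

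Counts over all rows moved more. Against VEH-HC, subtracting library medians gave 46 calls in VEH-T10, 341 in VEH-T3 and 42 in Y397F-T10 in place of 108, 681 and 149. It raised the share of higher calls from 38.9% to 71.7% in VEH-T10, 43.2% to 70.1% in VEH-T3, 41.6% to 71.4% in Y397F-T10 and 55.3% to 73.6% in Y397D-T3. With only the 12 libraries compared the counts were 321, 0, 43 and, in Y397D-T3, 1845 in place of 932. Without the 3 libraries of low glial marker sums they were 712, 1648, 821 and 1484. Unadjusted, they were 1964, 2845, 2232 and 3287, and for the other comparisons 498 in Y397F-T10 against VEH-T10, 1037 in Y397D-T3 against VEH-T3, 1075 in VEH-T10 against VEH-T3 and 1197 in the difference of plasmid effects. Leaving out a mouse gave 17 to 184 calls in VEH-T10, 155 to 1289 in VEH-T3, 7 to 402 in Y397F-T10 and 485 to 1053 in Y397D-T3 against VEH-HC. It gave 0 to 2 in Y397D-T3 against VEH-T3, 0 to 21 in VEH-T10 against VEH-T3 and 0 to 5 in the difference of plasmid effects.

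The 1 call in Y397D-T3 against VEH-T3 became 0 without the filter, with medians subtracted, with only the libraries compared, with the replicate block and without the 3 libraries. The 6 calls in VEH-T10 against VEH-T3 and the 4 in the difference of plasmid effects became 0 with medians subtracted, with only the libraries compared and with the replicate block. The cause of these shifts was not tested.

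Replicate numbers were not used as pairs in the main fit. The correlation of same-numbered deviations from the condition means ran from -0.50 to 0.84. In no comparison did every pair exceed 0.1. For mouse 1, r was 0.84 between Y397F-T10 and VEH-T3, 0.43 between Y397F-T10 and VEH-T10, and 0.41 between VEH-T10 and VEH-T3. It was -0.24 between VEH-T10 and VEH-HC. Arc ranked the mouse numbers in the same order in VEH-HC and VEH-T3, but not in Y397D-T3. Whether same-numbered mice shared a batch was not tested. With the replicate block Arc in Y397D-T3 against VEH-HC had an adjusted limma p of 0.0288, and 0 members changed their call. Absolute depth is unknown, which limits statements on Inhba and Pcsk1, the members with the lowest levels.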
